A study of Mus musculus with 8 samples.

Results

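The mitochondrial ribosomal proteins were followed as a group in skin fibroblasts of Nd2-mutant and control mice. Members were all array probes whose gene symbol begins with Mrpl or Mrps followed by a digit, a rule that uses no measured value. The rule found 105 probes of 72 genes among the 25697 probes of the table. Of these, 65 probes of 44 genes carry large subunit symbols (Mrpl) and 40 probes of 28 genes carry small subunit symbols (Mrps). A probe was tested if its detection p-value was under 0.01 on all 4 arrays of at least 1 strain, which 51 large subunit probes (40 genes) and 37 small subunit probes (27 genes) passed. Mrpl19, Mrpl21, Mrpl32, Mrpl45 and Mrps14 had no tested probe, and 13 of the 17 untested member probes were detected on no array.

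Each of the 8 arrays held RNA of skin fibroblasts from 1 mouse of 12 months, cultured in DMEM with serum. The Nd2-mutant strain, C57BL/6J-mtALR/LtJ, gave mice 28 and 32 (male) and 34 and 35 (female), and the control strain, C57BL/6J-mtAKR/J, gave mice 16 and 17 (male) and 15 and 37 (female). Both strains are conplastic: they carry the nuclear genome of C57BL/6J and differ in their mitochondrial DNA, where the mutant has an exchange in Nd2, a mitochondrially encoded subunit of complex I. All mitochondrial ribosomal proteins are encoded in the nucleus, so the strains were bred to share these genes, and no gene of the mitochondrial DNA was found on the array. Between 10973 and 11350 probes were detected on the Nd2-mutant arrays and between 10663 and 10837 on the control arrays, so that every Nd2-mutant array had more than every control array, and the part of this in the results was not tested. The array of control mouse 15 stood apart. Over the tested probes its correlation with the other arrays averaged 0.934, against 0.963 to 0.974 for the remaining arrays, and medians, counts and the values of named genes are therefore given without it too where it moved them most. Of 10 fibroblast marker genes 9 had a probe, and each of these was detected on all 8 arrays.

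The mitochondrial ribosome, or mitoribosome, translates the few messenger RNAs of the mitochondrial DNA, which encode core subunits of the respiratory chain. Its RNAs come from the mitochondrial genome, whereas its proteins are made in the cytosol and imported. Some of these proteins have counterparts in bacterial ribosomes and others occur in mitochondria alone. In whole cultures, fewer cells of a type and less RNA per cell cannot be told apart.

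Promoters of nuclear genes for mitochondrial proteins often carry sites for NRF-1, for GABPA (also called NRF-2) and for YY1. Core motifs of the 3 factors were searched on both strands in windows of 250 bases before to 50 after the gene start, from RefSeq on GRCm38.p6, of which 69 windows matched 63 of the 72 genes. CCGGAAG, the GABPA motif, stood in 34.8% of the member windows and in 8.86% of all 32851 windows. The NRF-1 motif stood in 14.5% and 3.02%, and the YY1 motif in 8.7% and 0.788%. At least 1 of the 3 stood in 52.2% of the member windows and in 11.9% of all windows. No motif contains another, and a match describes the sequence alone. The 100 bases before the start are shown for the highest members with a single window and a motif in this stretch (Mrpl3, Mrpl22 and Mrpl30). Mrpl12 and Mrpl20, among the lowest, and Mrps27 and Mrps18a, which carry small subunit symbols, are shown too. The motif is in capitals.
Mrpl3 (chr9:105053168-105053267, + strand, GABPA): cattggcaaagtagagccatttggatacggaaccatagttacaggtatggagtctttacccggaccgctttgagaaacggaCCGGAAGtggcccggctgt
Mrpl22 (chr11:58171564-58171663, + strand, GABPA): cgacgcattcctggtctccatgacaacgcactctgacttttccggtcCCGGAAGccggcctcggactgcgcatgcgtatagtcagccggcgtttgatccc
Mrpl30 (chr1:37890377-37890476, + strand, NRF-1): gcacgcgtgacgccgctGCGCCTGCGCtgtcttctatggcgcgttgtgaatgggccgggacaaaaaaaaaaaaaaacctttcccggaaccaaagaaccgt
Mrpl12 (chr11:120484537-120484636, + strand, NRF-1): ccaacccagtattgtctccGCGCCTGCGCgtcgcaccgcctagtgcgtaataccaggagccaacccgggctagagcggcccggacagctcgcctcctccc
Mrpl20 (chr4:155802778-155802877, + strand, none of the 3): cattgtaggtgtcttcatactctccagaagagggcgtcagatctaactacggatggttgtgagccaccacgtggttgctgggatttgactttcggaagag
Mrps27 (chr13:99344686-99344785, + strand, GABPA): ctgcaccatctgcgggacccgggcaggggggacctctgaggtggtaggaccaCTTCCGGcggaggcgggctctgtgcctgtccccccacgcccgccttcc
Mrps18a (chr17:46110904-46111003, + strand, GABPA): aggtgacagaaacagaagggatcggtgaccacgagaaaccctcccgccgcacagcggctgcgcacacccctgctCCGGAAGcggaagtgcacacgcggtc

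No mitochondrial ribosomal protein passed the test between the strains. Limma, run 2-sided on the log2 intensities of every tested probe with Benjamini-Hochberg adjusted p-values, called 0 of 51 large subunit probes and 0 of 37 small subunit probes at an adjusted p of 0.05. Over the whole table it called 0 of 10414 probes (0%), with 795 (7.63%) at an unadjusted p under 0.05. Run on the log2 values of the same probes, the methods' t-test called 1 (0.0096%), which was no member. It left 698 (6.7%) at an unadjusted p under 0.05.

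In the large subunit, 30 of 51 probes were higher in Nd2-mutant mice and 21 lower, with a median log2 difference of 0.06, beside a median of 0.00 and 50.2% higher over all tested probes. Of the 51 probes, 47 were detected on all 8 arrays, and for these the median was 0.04. The others, 1 probe each of Mrpl39, Mrpl47, Mrpl49 and Mrpl51, passed the filter through the Nd2-mutant arrays alone. Their differences were -0.06, 0.25, 0.24 and 0.13. The differences of the 51 probes ran from -0.35 to 0.49 on the log2 scale. The unadjusted p was under 0.05 for 1 probe, Mrpl2. The 95% interval of a probe reached a median of 0.39 to each side of its difference, and for 50 of the 51 probes it lay within -1 and 1. The exception was a probe of Mrpl3, whose interval reached 1.46.

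**Figure D1:**
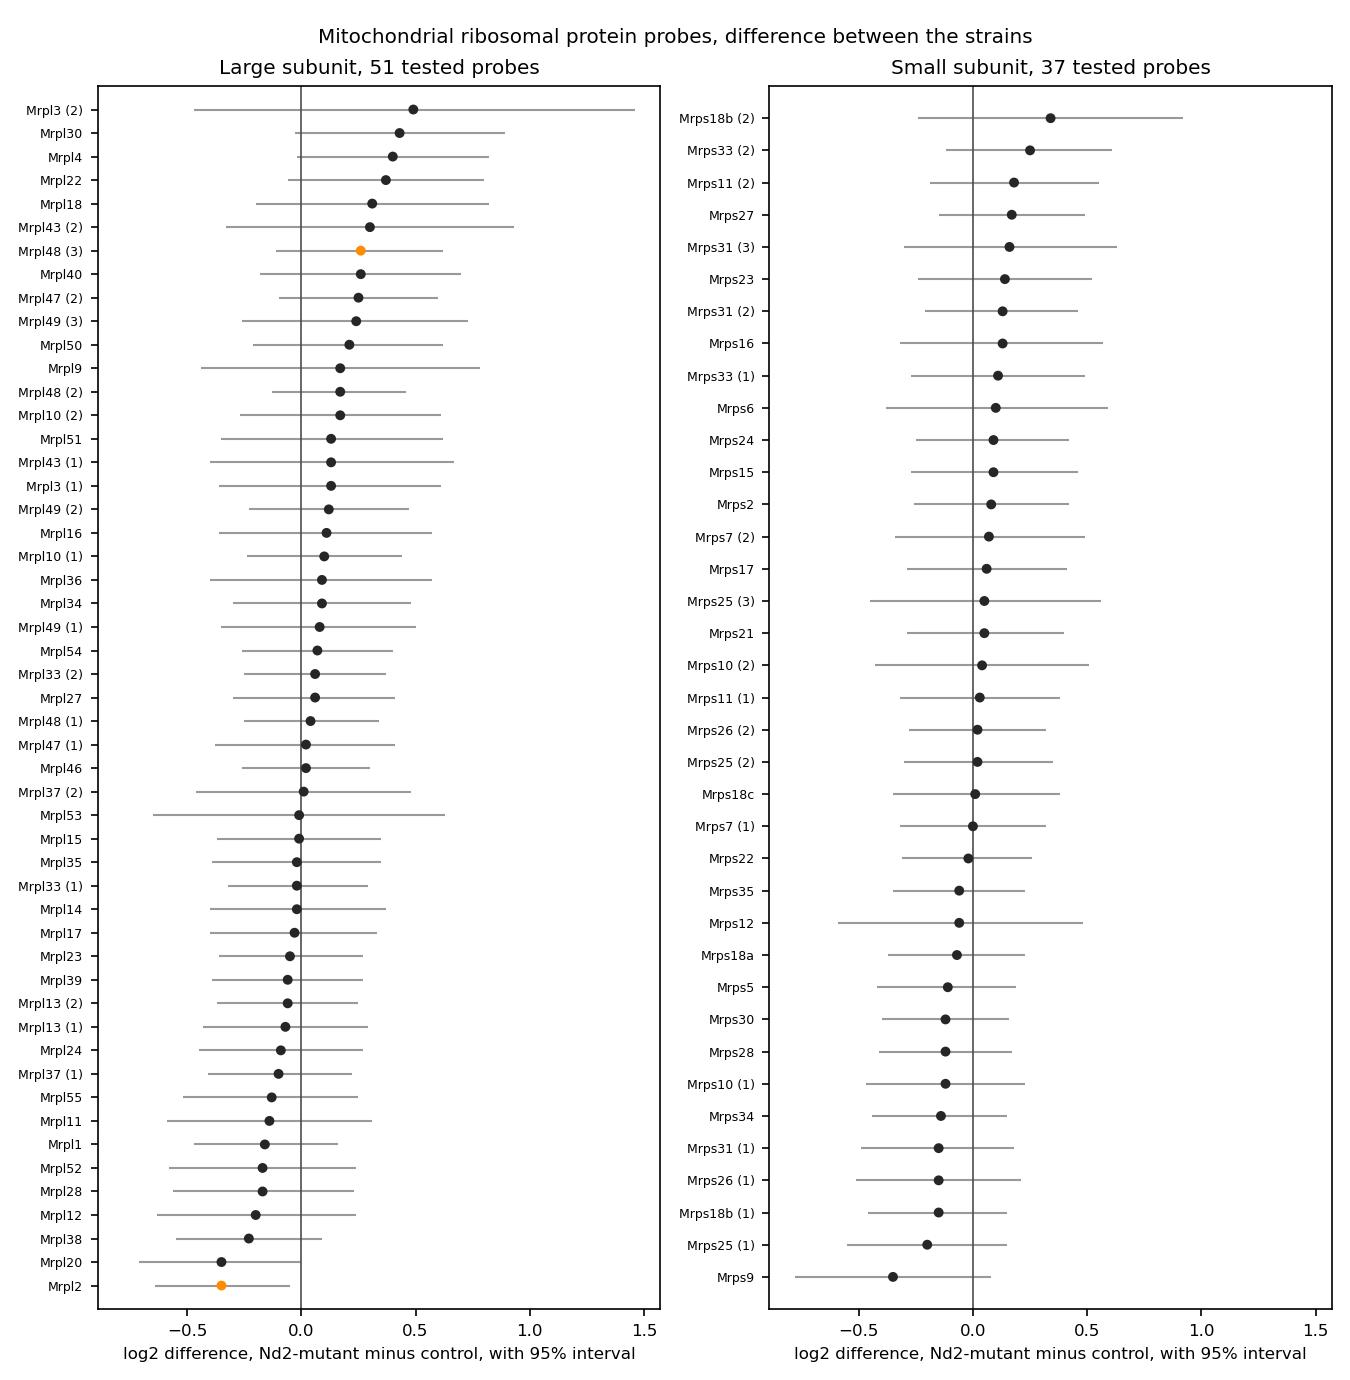
Log2 difference, Nd2-mutant minus control, of every tested member probe (points) with its 95% interval from limma (lines), large subunit on the left and small subunit on the right; numbers in brackets tell probes of the same gene apart. The large subunit runs from -0.35 to 0.49 and the small from -0.35 to 0.34, the Mrpl2 and Mrpl48 probes in orange had no overlap between the strains, and the Mrpl2 interval is the only one that leaves out 0.

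Mrpl2 encodes a core protein of the large subunit whose bacterial counterpart lies near the site of peptide bond formation. Its intensity was 397, 404, 381 and 392 in Nd2-mutant mice 28, 32, 34 and 35, and 581, 516, 502 and 430 in control mice 15, 16, 17 and 37. All 4 mutant values lay below all 4 control values, and the mutant values were close together (mean 394 ± 9.53, SD, n = 4) beside the controls (507 ± 61.9, SD, n = 4). The log2 difference was -0.35 (SE 0.13, 95% interval -0.64 to -0.05), with an adjusted p = 0.639 in limma. The exact permutation test gave p = 0.0286, the smallest that 4 against 4 mice allow. Groups without overlap always get this value, so it adds nothing to the separation. Without control mouse 15, in which Mrpl2 was highest, the difference was -0.28. It was -0.33 among males alone and -0.36 among females alone. In the whole table, 455 probes (4.37%) had no overlap between the strains, and 222 of them (2.13%) lay lower in Nd2-mutant mice.

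Mrpl48, a protein of the large subunit found in mitochondria, supplied the other probe without overlap. Its intensity was 291, 296, 297 and 286 in Nd2-mutant mice 28, 32, 34 and 35, and 173, 258, 284 and 271 in control mice 15, 16, 17 and 37. All 4 mutant values lay above the 4 control values, but the highest control reached 284 and the lowest mutant 286. The log2 difference was 0.26 (SE 0.16, adjusted p = 0.679 in limma) and 0.11 without control mouse 15. The other 2 tested Mrpl48 probes overlapped between the strains, with differences of 0.17 and 0.04. With 2 of 51 probes in the large subunit and 0 of 37 in the small, the count without overlap stood beside 4.37% over all tested probes, where 233 probes (2.24%) lay higher in Nd2-mutant mice in this way.

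Mrpl20, whose bacterial counterpart acts early in the assembly of the large subunit, had the lowest log2 difference beside Mrpl2. Its intensity was 617, 670, 582 and 547 in Nd2-mutant mice 28, 32, 34 and 35, and 611, 928, 731 and 860 in control mice 15, 16, 17 and 37. The groups overlapped through control mouse 15 alone, whose value lay among those of the mutant mice. The difference was -0.35 (SE 0.16, 95% interval -0.71 to 0.00, adjusted p = 0.639 in limma), and it was -0.46 without control mouse 15.

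The members with the highest differences in the large subunit had low control values in mouse 15, or in mice 15 and 16. For Mrpl30, which has a bacterial counterpart, the Nd2-mutant values were 419, 361, 447 and 414 and the control values 222, 233, 402 and 383 in mice 15, 16, 17 and 37. The log2 difference was 0.43 (SE 0.21, adjusted p = 0.639 in limma) with all mice and 0.30 without mouse 15. Mice 17 and 37 lay within the range of the mutant mice, and mice 15 and 16 well below it.

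Mrpl4, a counterpart of a bacterial protein at the exit tunnel, was likewise lowest in control mice 15 and 16. Its intensity was 176, 148, 168 and 170 in Nd2-mutant mice and 91, 94.7, 160 and 153 in control mice 15, 16, 17 and 37, a log2 difference of 0.40 (SE 0.19, adjusted p = 0.639 in limma). Mrpl22, also of the tunnel, was 244, 207, 253 and 243 in Nd2-mutant mice and 121, 167, 231 and 221 in control mice 15, 16, 17 and 37, a difference of 0.37 (SE 0.19). Leaving out mouse 15 brought these to 0.28 and 0.20. The 2 probes of Mrpl3, a core protein near the peptidyl transferase centre, gave 0.49 and 0.13, the second -0.08 without mouse 15. The first rested on low signals in control mouse 15 (22.3) and mouse 16 (61.8), beside 177 and 148 in mice 17 and 37 and 93.1 to 159 in mutant mice, and came to 0.04 without mouse 15. Mrpl18, a neighbour of the 5S rRNA in bacteria, went from 0.31 to 0.05.

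**Figure D2:**
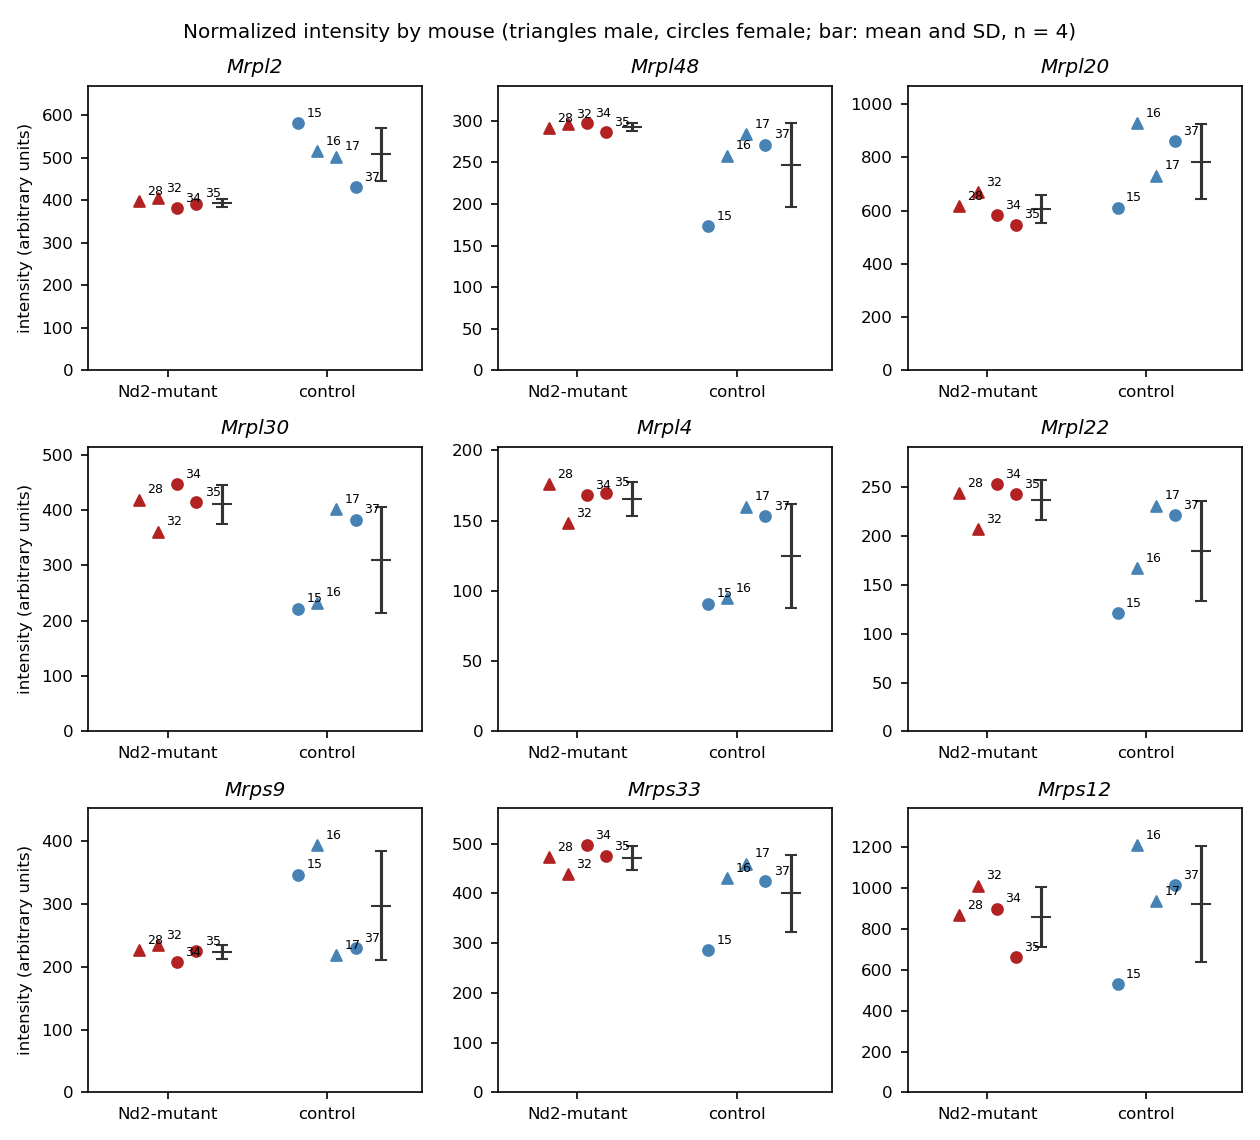
Normalized intensity (linear axis from 0) of 9 member probes in each mouse, Nd2-mutant in red and control in blue, with the mouse number beside each point and the mean and SD of 4 mice at the right of each group. Mrpl2 and Mrpl48 (the probe without overlap) are the only panels whose groups do not overlap, and control mouse 15 is the lowest of the 8 mice for Mrpl48, Mrpl30, Mrpl4, Mrpl22, Mrps33 and Mrps12.

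The proteins of the stalk, which recruits the translation factors, did not differ by more than their spread. Mrpl12, a stalk protein known also for binding the mitochondrial RNA polymerase, was 472 to 698 in Nd2-mutant mice and 466 to 839 in control mice (log2 difference -0.20, 95% interval -0.63 to 0.24). Mrpl11, at the base of the stalk, gave -0.14 (95% interval -0.59 to 0.31). The 2 probes of Mrpl10, which carries the Mrpl12 copies, gave 0.10 and 0.17. Without control mouse 15, Mrpl12 came to -0.35, Mrpl11 to -0.32 and the Mrpl10 probes to -0.01 and -0.03.

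At the exit of the nascent chain, Mrpl23 gave a log2 difference of -0.05 (95% interval -0.36 to 0.27) and Mrpl24 one of -0.09 (95% interval -0.45 to 0.27). Mrpl45, which ties the ribosome to the inner membrane, was detected on no array by either of its probes, and no probe carried the symbol Mrpl44. Mrpl38 and Mrpl52, both specific to mitochondria, were among the 5 lowest, at -0.23 and -0.17, and at -0.28 and -0.27 without mouse 15. The groups overlapped for each of these proteins.

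Where a large subunit gene had several tested probes, these gave the same sign in 7 of 9 genes. The exceptions were Mrpl33 (-0.02 and 0.06) and Mrpl37 (-0.10 and 0.01), in each case with differences smaller than their standard errors.

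In the small subunit, 23 of 37 probes were higher in Nd2-mutant mice and 14 lower, with a median log2 difference of 0.03 and a range from -0.35 to 0.34. No probe reached an unadjusted p of 0.05, and none was without overlap. The smallest adjusted p in limma was 0.648. All 37 intervals lay within -1 and 1 on the log2 scale, and their median reach was 0.35 to each side.

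Mrps9, a core protein of the head of the small subunit, had the lowest difference. Its intensity was 227, 235, 208 and 225 in Nd2-mutant mice 28, 32, 34 and 35, and 347, 394, 219 and 230 in control mice 15, 16, 17 and 37. Control mice 17 and 37 lay within the range of the mutant mice, whereas mice 15 and 16 lay above it. The log2 difference was -0.35 (SE 0.19, 95% interval -0.78 to 0.08, adjusted p = 0.648 in limma), and -0.26 without mouse 15. Mrps9 was thus high in the same 2 control mice in which Mrpl30 and Mrpl4 were low.

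Mrps18b, 1 of 3 related mammalian Mrps18 genes, held both the highest and 1 of the lowest differences. A first probe gave 95.6 to 124 in Nd2-mutant mice and 40.9, 81.2, 139 and 96.9 in control mice 15, 16, 17 and 37 (log2 difference 0.34, SE 0.26), and the difference was 0.07 without mouse 15. A second, brighter probe gave 651 to 885 in Nd2-mutant mice and 797 to 933 in control mice (-0.15, SE 0.14, and -0.17 without mouse 15). The probes disagree in sign, and neither passed the test (adjusted p = 0.711 and 0.745 in limma).

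Mrps33, a small protein specific to mitochondria, was 473, 439, 497 and 475 in Nd2-mutant mice and 286, 430, 460 and 424 in control mice 15, 16, 17 and 37. The log2 difference was 0.25 (SE 0.16), and 0.10 without mouse 15; a second probe of the gene gave 0.11 and -0.05. Mrps11, a core protein of the platform, gave 0.18 with all mice and 0.04 without mouse 15 by one probe, and 0.03 and -0.09 by a second, brighter probe. Mrps27, a mitochondrial protein with RNA-binding repeats, gave 0.17 and 0.10.

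Probes of the same small subunit gene differed in sign in 5 of 8 genes. Beside Mrps18b these were Mrps10 (0.04 and -0.12), Mrps25 (0.05, -0.20 and 0.02), Mrps26 (-0.15 and 0.02) and Mrps31 (0.16, -0.15 and 0.13). Without mouse 15 the probes of Mrps10 (-0.11 and -0.13), Mrps25 (-0.20, -0.26 and -0.09) and Mrps26 (-0.27 and -0.06) shared a sign, and those of Mrps31 (0.01, -0.19 and 0.03) did not. The interval of each of these probes with all mice included 0.

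Of the small subunit proteins with known roles, Mrps12, which sits at the decoding centre, spread widely. Its intensity was 869, 1013, 900 and 661 in Nd2-mutant mice and 532, 1211, 937 and 1014 in control mice 15, 16, 17 and 37, a log2 difference of -0.06 (95% interval -0.59 to 0.48), and -0.30 without mouse 15. Control mice gave both the lowest and the highest value.

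Mrps5 and Mrps7, core proteins of the body and of the head, gave -0.11 for the first and 0.00 and 0.07 for the 2 probes of the second. Mrps16 and Mrps22, in which mutations cause mitochondrial disease, gave 0.13 and -0.02, and Mrps34, which is needed for a stable small subunit, -0.14. Mrps18c gave 0.01. Without mouse 15, Mrps16 came to -0.08, Mrps18c to -0.13 and the Mrps7 probes to -0.06 and -0.09. Mrps18a and Mrps30 carry small subunit names but are placed in the large subunit by structures of the mammalian ribosome, and they gave -0.07 and -0.12. Counting them there changed the medians to 0.04 in both subunits.

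Within the control strain, most members of both subunits were low in mouse 15, where 44 of 51 large and 31 of 37 small subunit probes lay below their mean. In each mouse, the deviation of every probe from its mean over the 8 arrays was taken and the median given. For the large subunit it was -0.01, 0.08, 0.05 and 0.00 on the log2 scale in Nd2-mutant mice 28, 32, 34 and 35, and -0.38, 0.13, 0.09 and 0.06 in control mice 15, 16, 17 and 37. For the small subunit it was -0.07, 0.02, 0.07 and 0.00, and -0.35, 0.12, 0.09 and 0.08. Mouse 15 was low in both subunits, and the other 3 control mice lay at or above the mutant mice, with the exception of Nd2-mutant mouse 32, which exceeded control mouse 37 in the large subunit.

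Mouse 15 had the lowest of the 8 values in 34 of 51 large subunit probes (66.7%) and 24 of 37 small subunit probes (64.9%). Over all tested probes it was the lowest in 31.4% and the highest in 26.5%, so that it was extreme in both directions, while it was the highest in 2 large and 0 small subunit probes. With the tested probes in 4 equal groups from the dimmest to the brightest, mouse 15 was lowest in 28%, 29.5%, 32.7% and 35.4% of all probes, a share that rose with the signal, and in 75%, 64.7%, 69% and 61.8% of the 8, 17, 29 and 34 member probes in these groups. The part of signal strength in the member share was not tested.

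The low values of mouse 15 extended to other groups. Cytosolic ribosomal proteins had a median deviation of -0.39 there, with 50 of 67 probes (74.6%) lowest in this mouse. Nuclear subunits of the respiratory chain had -0.37, with 59 of 80 probes (73.8%). These 2 lists were matched by gene symbol, and a few of their genes, such as Rps19bp1, Cox4nb and Ndufaf1, are not subunits. Mitochondrial aminoacyl-tRNA synthesis, which charges the tRNAs for the same ribosome, stood at 0.05 with 6 of 18 probes (33.3%), and mitoribosome assembly and rRNA modification at 0.01 with 4 of 16 probes (25%). Mitochondrial translation factors stood between these at -0.22 with 5 of 9 probes (55.6%), mitochondrial transcription at -0.23 with 6 of 12 (50%) and mitoribosomal proteins with other symbols at -0.16 with 4 of 8 (50%). Proliferation genes stood at -0.47, with 12 of 22 probes (54.5%) lowest in mouse 15. No mouse was chosen by the labels here; this array was singled out after its values were seen, and these shares are a description.

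**Figure D3:**
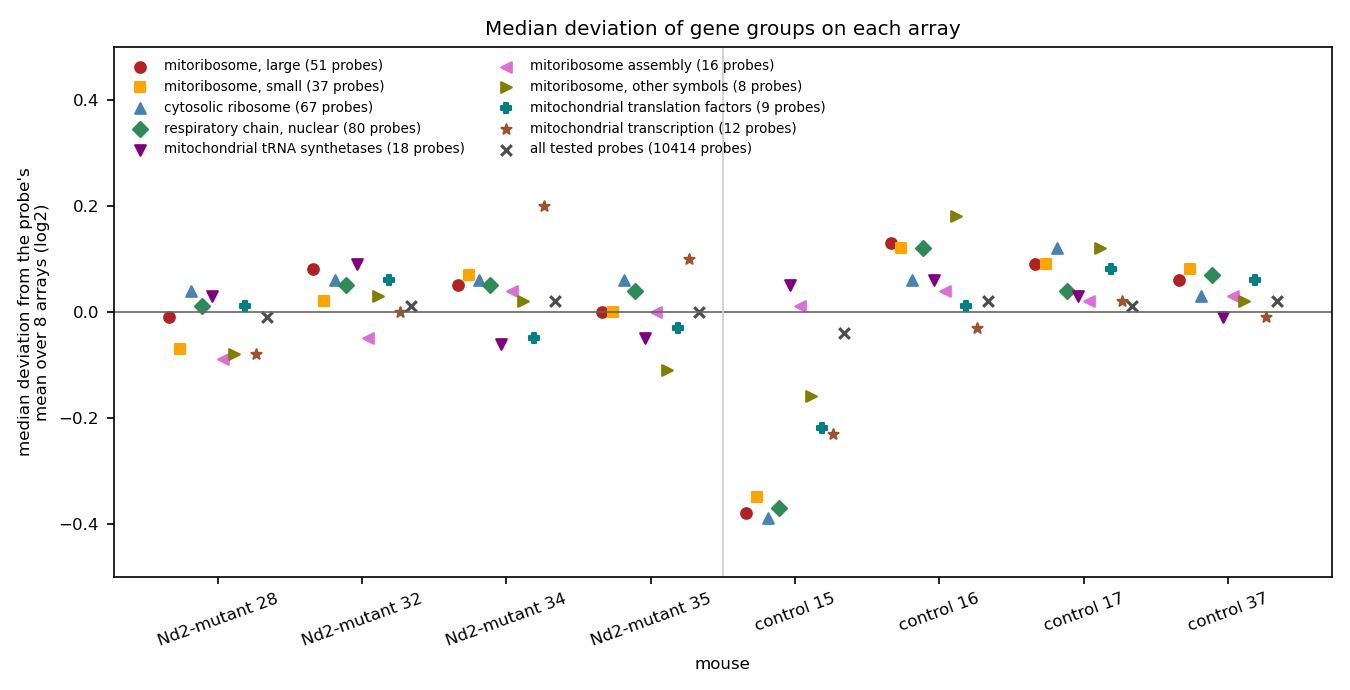
Median log2 deviation from each probe's mean over the 8 arrays, by mouse, for the mitoribosomal subunits, cytosolic ribosomal proteins, nuclear respiratory chain subunits, 5 lists of genes that work with the mitoribosome and all tested probes. In control mouse 15 the 2 subunits lie at -0.38 and -0.35 with the cytosolic ribosome (-0.39) and the respiratory chain (-0.37), translation factors (-0.22), mitochondrial transcription (-0.23) and mitoribosomal proteins with other symbols (-0.16) lie less low, and tRNA synthesis (0.05), assembly (0.01) and all tested probes (-0.04) lie near 0.

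Without control mouse 15 the direction of both subunits turned. The median log2 difference was -0.05 in the large subunit, with 16 of 51 probes higher in Nd2-mutant mice, and -0.09 in the small subunit, with 6 of 37 probes higher. In all, 35 of 88 members changed sign, 33 of them from higher to lower. Over all tested probes the median was -0.01, with 5019 of 10414 higher in Nd2-mutant mice. No member reached an adjusted p of 0.05 without this mouse, and limma gave adjusted p = 0.601 for Mrpl20 and 0.619 for Mrpl2, the 2 members then at an unadjusted p under 0.05.

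**Figure D4:**
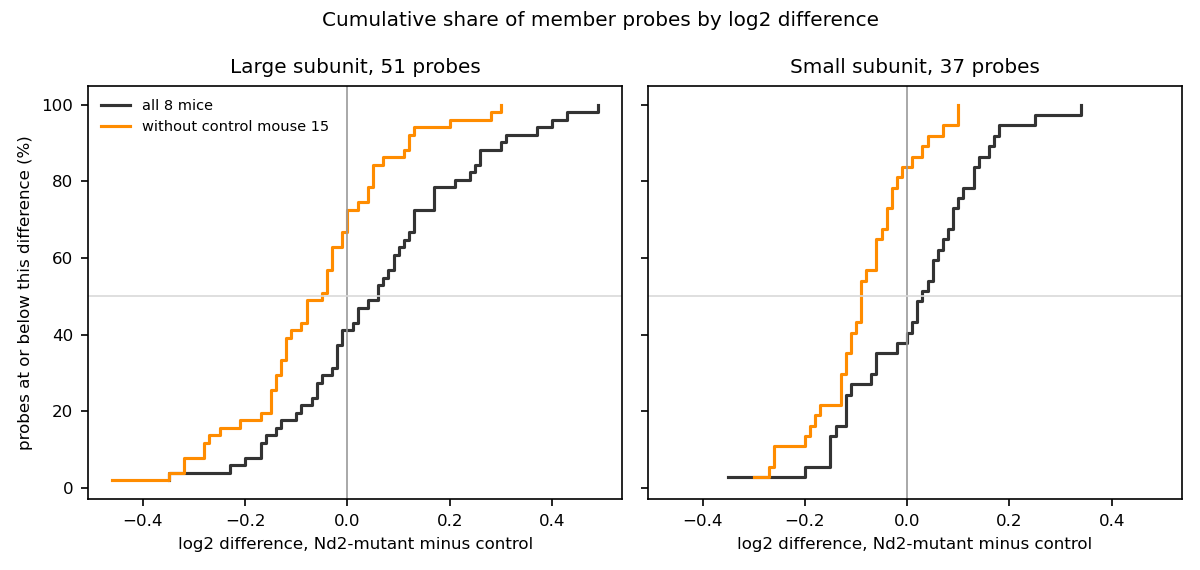
Cumulative share of member probes (vertical axis, %) at or below each log2 difference, Nd2-mutant minus control (horizontal axis), with all 8 mice in black and without control mouse 15 in orange. Both subunits shift to the left, from medians of 0.06 and 0.03 to -0.05 and -0.09.

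The spread within the strains differed in the same way. The SD of the log2 values among the 4 mice had a median over probes of 0.14 in Nd2-mutant and 0.29 in control mice for the large subunit, and of 0.11 and 0.25 for the small subunit, beside 0.18 and 0.29 over all tested probes. Without mouse 15 the control medians were 0.15 and 0.13, and 0.20 over all tested probes. The SD was larger among controls for 40 of 51 and 31 of 37 member probes with all mice, beside 73.4% of all probes, and for 24 (47.1%) and 20 (54.1%) member probes without mouse 15, beside 55.3% of all probes.

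Mouse 15 is female, and the medians within each sex had opposite signs. Among males alone the median log2 difference was -0.08 in the large and -0.12 in the small subunit, and among females alone it was 0.18 and 0.15. Other groups split likewise by sex. Cytosolic ribosomal proteins gave -0.04 in males and 0.28 in females, and nuclear respiratory chain subunits -0.06 and 0.21. All tested probes stood at -0.02 in males and 0.02 in females. With 2 mice per strain and sex, the interaction of strain and sex was tested in limma, and 0 of 88 members passed, with 0 at an unadjusted p under 0.05 and a smallest p of 0.0598 (adjusted p = 1). Of the 10414 tested probes, 1 passed (0.0096%) and 184 (1.77%) had an unadjusted p under 0.05.

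Proteins with and without bacterial counterparts were also described apart. In the large subunit, the 31 probes with counterparts in bacteria had a median log2 difference of 0.02 (16 higher, 15 lower) and the 20 specific to mitochondria one of 0.07 (14 higher, 6 lower). In the small subunit the medians were 0.04 (21 probes) and 0.02 (16 probes). Without mouse 15 all 4 medians were below 0, from -0.09 to -0.03. Members whose promoter window held the GABPA motif had a median of 0.09 (31 probes), and those whose window did not, 0.03 (48 probes). For the NRF-1 motif the medians were -0.02 (9 probes) and 0.06 (70 probes), and for YY1 -0.01 (8 probes) and 0.06 (71 probes).

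Genes that work with the mitoribosome gave no call either. Of mitoribosomal proteins with other symbols, 1 of 8 probes was higher and 7 lower (median -0.09), from Ptcd3, a pentatricopeptide protein of the small subunit (-0.24), to Dap3, a protein of its head (0.41 by 1 of 4 probes, or 0.15 without mouse 15, and -0.12 to -0.08 by the others). Mitochondrial translation factors had 6 of 9 probes higher (median 0.01), from Gfm2, a ribosome recycling factor (-0.21), to Mrrf, which splits the subunits after termination (0.38, and 0.04 without mouse 15). Aminoacyl-tRNA synthesis had 12 of 18 probes lower (median -0.10), with the alanyl-tRNA synthetase Aars2 the lowest (-0.47, and -0.30 without mouse 15). Aars2 was dim, at 6.1 to 13.6 in Nd2-mutant and 13.5 to 34.6 in control mice. It was detected on 1 of 4 Nd2-mutant arrays and passed the filter through the control arrays alone.

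Assembly and rRNA modification had 10 of 16 probes lower (median -0.05), from Mettl17, a methyltransferase-like factor of the small subunit (-0.53), to Mterfd2, an rRNA-binding partner of a methyltransferase (0.45 by 1 of 2 tested probes, and -0.12 by the other, brighter probe). Without mouse 15, Mettl17 came to -0.26 and the Mterfd2 probes to 0.26 and -0.16. The first Mterfd2 probe was detected on 3 of 4 control arrays and passed the filter through the Nd2-mutant arrays alone. Mitochondrial transcription had 9 of 12 probes higher (median 0.05), from Polrmt, the RNA polymerase (-0.29), to Slirp, which stabilises mitochondrial messenger RNAs (0.34 by 1 of 2 probes, and 0.07 by the other). Without mouse 15, Polrmt came to -0.13 and the Slirp probes to 0.14 and -0.02. None of these probes passed the test, and the smallest adjusted p in limma among the 5 lists was 0.639.

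The 2 most similar groups moved close to the members. Cytosolic ribosomal proteins had a median log2 difference of 0.11 (50 of 67 higher, 0 called), from Rps15a (-0.66) to Rpl29 (0.53 by 1 of 2 probes, and 0.07 by the other), and Rpl12 was higher without overlap (0.31, adjusted p = 0.639 in limma). Nuclear respiratory chain subunits had a median of 0.07 (55 of 80 higher, 0 called), from Atp5e (-0.29) to Atp5f1 (0.56). Without mouse 15 these medians were 0.00 and -0.05, Rps15a came to -0.18, the Rpl29 probes to 0.25 and 0.12, Atp5e to -0.41 and Atp5f1 to 0.08. No test was made of a difference between these groups and the members.

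Other cell types were read from the summed intensities of their markers. Macrophage markers summed to 264 to 1614 in Nd2-mutant and 214 to 559 in control mice, the highest in mutant mouse 35 and, among controls, in mouse 15, with Ptprc and Itgam detected on no array. Smooth muscle and pericyte markers summed to 10755 to 14584 and 12415 to 15136, endothelial markers to 128 to 241 and 206 to 538, and keratinocyte markers to 196 to 1162 and 327 to 957. Mouse 15 had the highest control sum in each of these lists and for fibroblast markers (46219, with 30749 as the lowest control and 37146 to 43415 in mutant mice). Each sum took the brightest probe of a gene, and 1 gene could carry it. In mouse 15, Acta2 gave 13935 of the 15136 for smooth muscle, Laptm5 443 of the 559 for macrophages and Krt14 812 of the 957 for keratinocytes. The dimmer Acta2 probes were lowest among controls in mouse 15 (780, 5649 and 540), and Lyz2 was 20.7 there beside 152 in mouse 17. The sums are thus no measure of every marker of a list. Melanocyte and adipocyte markers had no tested probe.

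Among single markers, Dcn and Lum, fibroblast matrix proteoglycans, were higher in Nd2-mutant mice without overlap (log2 differences 0.82 by 1 of 2 Dcn probes and 0.88), Emcn, an endothelial sialomucin, lower (-1.20), and Mybl2, a cell cycle transcription factor, lower (-0.61), each with an adjusted p = 0.639 in limma. The other, brighter Dcn probe gave 0.12 with overlap, and 0.35 without mouse 15. The lowest and highest genes were Col1a2 (-0.30) and Lum for fibroblasts, Csf1r (-0.12) and Lyz2 (1.24) for macrophages, Krt14 (-1.25) and Krt10 (0.27) for keratinocytes, Emcn and Tek (0.49) for endothelial cells, Myh11 (-1.06) and Acta2 (0.33 by the highest of 4 probes, the others -0.23, -0.15 and 0.25) for smooth muscle, and Mcm7 (-0.77) and Cdk1 (0.39) for proliferation. Without mouse 15 the Acta2 probes came to -0.28, -0.39, -0.10 and -0.36 in the same order, 0 of 10 smooth muscle probes were higher in Nd2-mutant mice, Myh11 came to -0.72, Col1a2 to -0.14 and Cdk1 to 0.24. Lyz2 was detected on 3 of 4 control arrays and passed the filter through the Nd2-mutant arrays alone. The part of other cells or of proliferation in the mitoribosomal values of mouse 15 was not tested.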

How the data were processed

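RNA of 8 fibroblast cultures was hybridised to MouseRef-8 v2.0 BeadChips, with 1 array per mouse. The authors extracted probe intensities in GenomeStudio, with quantile normalization and background subtraction. Each deposited intensity is linear and comes with a deposited detection p-value from negative controls. Both deposited tables hold the same bytes, so normexp and quantile normalization of raw values were not run, nor chip as a block, since no chip is named. The number of arrays limits the precision, and p-values set a difference against the spread between these mice. With 1 culture and 1 array per mouse, the spread of mice, cultures and arrays cannot be told apart.

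Intensities were floored at 0, and the log2 of the value plus 16 was used. Differences were fitted over all tested probes with limma 3.58.1 (lmFit, eBayes) in R 4.3.3, with Benjamini-Hochberg adjustment, after a test on simulated data. There, 10 of 80 probes changed by 0.5 on the log2 scale were called, 33 of 57 changed by 1 and 60 of 63 changed by 2. Of 10214 unchanged probes, 11 were called. Most changes of 0.5 were thus missed in the simulation. Its noise was drawn for each probe apart, without a shift shared by many probes as in mouse 15, so these rates may not hold for the real arrays. The fold or percent change of dim probes is understated by the added 16. Alternatives were 1 or 50 added, the linear scale, other filters and the methods' t-test on the log2 values. Further alternatives were a trend, array weights, sex as a term, centring, each sex alone and leaving out each mouse. Members, gene lists and tests were chosen with earlier results of these data known. A member is named if a probe was called, did not overlap between the strains, was among the 5 highest or lowest of its subunit, differed in sign from another probe of its gene, or was on a list of 20 genes with known roles; of other lists, the lowest and highest gene and those without overlap are named. Of these, 2 genes are not reported here.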

Additional observations from a re-analysis of the deposited data

Results flagged for a closer look

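In each strain, the highest and lowest of the 4 mice were compared with the range of the strain (Dixon's test) for 47 named probes and the 2 subunit medians, and 7 of 98 groups had a value far from the others, where chance flags about 1 in 20 groups. Of the 7, 6 lay in control mouse 15, whose array had already been singled out from its values, so that its flags are no independent support. The median deviation of this mouse was set apart from the other controls in the large subunit (gap of 0.87 of the range) and in the small subunit (0.913). So were its low values of Mrpl10 by 1 of 2 probes (397, beside 676 to 729 in the other controls, gap 0.876), Mrpl18 (37.2, beside 86.4 to 98.7, gap 0.852), Mrps25 by 1 of 3 probes (29.3, beside 69.6 to 81.3, gap 0.832) and Mrps26 by 1 of 2 probes (161, beside 226 to 232, gap 0.924). The remaining value was Mrpl33 in control mouse 37 (1614, beside 1827 to 1862 by 1 of 2 probes, gap 0.864).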

How the results depend on the processing

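No member was called under any alternative, and the smallest adjusted p of a member was 0.308. The median log2 difference turned to -0.01 (large) and -0.07 (small) with array weights and to -0.08 and -0.12 in males alone. Leaving out each mouse gave -0.05 to 0.08 and -0.09 to 0.08, below 0 only without control mouse 15. With 1 probe per gene the medians were 0.00 and 0.01. Large subunit probes at an unadjusted p under 0.05 numbered 2 with 50 added, on the linear scale, for probes found on all 8 arrays, with no filter, with a trend, with array weights and with sex as a term, 0 in each sex alone, and 0 to 5 without each mouse. The 5, without control mouse 17, were Mrpl2, Mrpl22, Mrpl30, Mrpl4 and a probe of Mrpl51 (not tested with all mice, and named after its value was seen), when 14% of all probes were under 0.05. Small subunit probes numbered 0 to 2 without each mouse (2 without control mouse 17). Probes without overlap, an alternative added after the data were seen, numbered 2 to 6 (large; 6 without Nd2-mutant mouse 32 or control mouse 17) and 0 to 3 (small; 3 without Nd2-mutant mouse 32 or control mouse 15). Over all tested probes this share also rose with 3 mice against 4, to 5.79% to 11.7% (8.53% without Nd2-mutant mouse 32, 11.7% without control mouse 17 and 8.03% without control mouse 15). Of 47 named probes, 21 kept their direction throughout, and 13 turned without control mouse 15. No paired analysis was possible because no mouse number occurs in both strains. Differences under about 0.4 on the log2 scale are within the interval of most members.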
